A study of Mus musculus with 9 samples.

Results

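The small leucine-rich proteoglycans are secreted matrix proteins built around a run of leucine-rich repeats, most of them carrying sugar chains, and 10 of their genes were followed here in mouse fracture callus. Decorin (Dcn), biglycan (Bgn), asporin (Aspn), fibromodulin (Fmod), lumican (Lum), Prelp, osteomodulin (Omd), osteoglycin (Ogn), epiphycan (Epyc) and chondroadherin (Chad) were taken by gene symbol from a table of 22054 genes, each symbol matching a single row. Under 3 treatments, levels of most members differed more between libraries of the same group than between groups. The same held for the median gene of all tested, with 14.7% of its variation between treatments. SR-717, H-151 and PBS were compared in main fits with all libraries of 2 groups and no replicate block. There, no member tested passed the thresholds used (an unadjusted p under 0.05 and a fold change of at least 1.5), while 0.426% to 0.756% of all genes tested did so. Epyc was too low to be tested in both main comparisons with SR-717. With 1 library left out, up to 2 members passed in a comparison. Chad was called lower in SR-717 than in PBS once replicate numbers were entered as a block. That blocked fit called 3.15% of all genes tested, against 0.519% without the block. Bgn was the most highly expressed member in all 9 libraries and the steadiest of them, whereas Chad and Epyc, both known as cartilage genes, varied over a wide range.

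Bulk RNA sequencing covered the callus of C57BL/6J mice with a fractured femur, labelled as 7 weeks of age and as bone tissue. The study names male mice for the fracture model and day 7 after surgery for the callus of treated animals. The H-151 group (3 libraries) received 750 nmol of H-151, an inhibitor of the innate immune adaptor STING. The SR-717 group (3 libraries) received the STING activator SR-717 at 30 mg/kg, and the PBS group (3 libraries) received PBS buffer as a control. Whether the drugs were dissolved in PBS is not stated. All 3 groups shared the fracture, the needle fixation of the bone and a 200 µl intraperitoneal injection once a day for 1 week, so that PBS served as a fractured and injected control and no unfractured bone was part of the comparison. Neither the labels nor the methods state how many mice went into a library, and p-values therefore measure the spread between these libraries.

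In connective tissue these proteins sit on the surface of collagen fibrils and set how the fibrils assemble and how thick they grow. Several also hold growth factors of the TGF-β family in the matrix or, once released, are bound by receptors on nearby cells. A callus passes through fibrous tissue, cartilage and woven bone, tissues that differ in which of the members they use. Dcn, Bgn and Aspn form class I of the family, Fmod, Lum, Prelp and Omd class II, Ogn and Epyc class III, while Chad belongs to a class without glycosaminoglycan chains.

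Library depth lay between 16987398 and 23272480 expected counts. SR-717 replicate 1 stood apart on the leading principal component (46.6% of the variance, score 100.6), followed by PBS replicate 1 at 38.8, with the other libraries between -28.8 and -4.0. The summed level of 6 neutrophil markers was 13648 CPM (read counts scaled to library size) in SR-717 replicate 1 and between 552 and 4346 CPM in the others. All 7 osteoblast markers exceeded 1 CPM in every library, as did 7 of 10 chondrocyte markers, so the labelled bone tissue was present in all. The 7 skeletal muscle markers were also abundant, summing to between 4175 and 24183 CPM. In bulk RNA, fewer cells of a type and less RNA per cell cannot be told apart, which applies to every member.

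Most of the genes lie in 3 groups in the mouse genome (GRCm38, GENCODE M21). On chromosome 10, Dcn (ENSMUSG00000019929, chr10:97479609-97518143), Lum (ENSMUSG00000036446, chr10:97565128-97572703) and Epyc (ENSMUSG00000019936, chr10:97644068-97682454) follow each other on the plus strand within 202846 bases, with the related gene Kera between the last pair. On chromosome 13, Aspn (ENSMUSG00000021388, chr13:49544443-49567565), Omd (ENSMUSG00000048368, chr13:49582462-49592822) and Ogn (ENSMUSG00000021390, chr13:49608046-49624501) form a row with the relative Ecm2, all on the plus strand. On chromosome 1, Prelp (ENSMUSG00000041577, chr1:133910304-133921414, minus strand) and Fmod (ENSMUSG00000041559, chr1:134037254-134048277, plus strand) point away from each other with 115839 bases and 0 protein-coding genes between them. Bgn (ENSMUSG00000031375, chrX:73483602-73495933) and Chad (ENSMUSG00000039084, chr11:94565047-94569127) stand alone. The 3 members on chromosome 13 lie inside the gene Cenpp on the other strand. Of the exon bases of Epyc, 40.6% overlap an antisense RNA gene, and for Prelp this share is 9.68%. Whether reads were counted by strand is not given in the sources used here, so counts of Epyc and Prelp may include antisense reads.

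RefSeq promoter windows on GRCm38.p6, from 250 bases before to 50 after the gene start, matched 8 of the 10 members, the exceptions being Dcn and Lum. The 250 bases before the start are shown for Prelp and Fmod, the chromosomal neighbours whose levels moved together most closely (chr1:133921402-133921651, minus strand, and chr1:134037004-134037253, plus strand), and for Chad, the widest-ranging of the well-expressed members (chr11:94564797-94565046, plus strand). Capitals mark a match to any of the 6 motifs searched on both strands, none of them contained in the letters of another. For the TATA box the letters were TATAAA. An E-box was searched as CACGTG. The SOX letters, as bound by cartilage factors, were ACAATGG. For AP-1 the search used TGAGTCA. Letters for SMAD factors were GTCTAGAC. Those for RUNX, the bone factor family, were ACCACA.
Prelp: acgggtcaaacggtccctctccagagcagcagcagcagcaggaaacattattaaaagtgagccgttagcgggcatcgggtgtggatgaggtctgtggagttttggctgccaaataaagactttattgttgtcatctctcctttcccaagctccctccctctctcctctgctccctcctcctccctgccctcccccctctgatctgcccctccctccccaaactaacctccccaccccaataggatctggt
Fmod: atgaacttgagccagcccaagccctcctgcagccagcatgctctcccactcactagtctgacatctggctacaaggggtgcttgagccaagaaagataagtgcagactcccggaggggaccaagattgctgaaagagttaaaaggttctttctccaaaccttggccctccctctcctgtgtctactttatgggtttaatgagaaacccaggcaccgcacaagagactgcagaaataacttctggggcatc
Chad: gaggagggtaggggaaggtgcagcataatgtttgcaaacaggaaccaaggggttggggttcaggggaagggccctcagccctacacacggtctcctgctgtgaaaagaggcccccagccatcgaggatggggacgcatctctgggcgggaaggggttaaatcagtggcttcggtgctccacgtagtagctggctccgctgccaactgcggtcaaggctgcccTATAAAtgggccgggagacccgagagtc
Chad held TATAAA on the forward strand beginning 28 bases before the start (position -28), a motif present in 14.2% of the 27025 promoter windows on either strand. Neither Prelp nor Fmod contained any of the 6 motifs in its window. Their GC contents were 55.3% and 51.0%, and that of Chad 61.0%, against a median of 52.7% over all windows. Among the other members, Ogn held a RUNX and 2 overlapping TATA matches, Aspn had TATA letters and 1 of 2 Epyc windows had SOX and RUNX letters, whereas Bgn and Omd had none. The shares of all windows with a SOX and a RUNX match were 3.71% and 16.9%. A match in these letters is a description of the window only.

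Levels of different genes were set side by side in TPM, transcript levels scaled for gene length to a fixed sum in each library. Mean TPM over the 9 libraries placed Bgn at the top with 2526 ± 453 (SD, n = 9), and Fmod came next with 578 ± 224. Lum followed with 526 ± 261, Dcn with 433 ± 153 and Aspn with 198 ± 70.2. Lower levels were found for Ogn (109 ± 31.6), Chad (84.0 ± 54.3), Prelp (79.1 ± 31.1) and Omd (29.8 ± 13.6), while Epyc was barely detected at 0.656 ± 0.592. The step from Bgn to Fmod held in all 9 libraries without overlap, the lowest Bgn value being 1814 TPM and the highest Fmod value 919 TPM. Fmod and Lum did not differ beyond their spread, since Fmod was the higher in only 5 of 9 libraries. Chad exceeded Prelp in 4 of 9 libraries, so their order was likewise unresolved, and Lum exceeded Dcn in 7. At the bottom, Omd (lowest value 15.1 TPM) and Epyc (highest value 1.68 TPM) were again fully apart. Among all genes of a library ordered by TPM, Bgn ranked between place 30 and place 82.

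Summed over the 10 members, the family accounted for 0.383% to 0.551% of all TPM. The sums were 5405, 5041 and 3882 TPM in the H-151 libraries, 4435, 4684 and 5515 TPM in the PBS libraries and 3831, 3929 and 4355 TPM in the SR-717 libraries. The SR-717 sums lay mostly at the low end, but H-151 replicate 3 fell among them. Bgn alone made up 43.8% to 63.4% of this sum (median 55.7%). The balance between the members next in level changed from library to library, with Fmod supplying 5.33% to 18.2% of the family, Lum 5.50% to 20.3% and Dcn 5.03% to 17.9%.

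**Figure D1:**
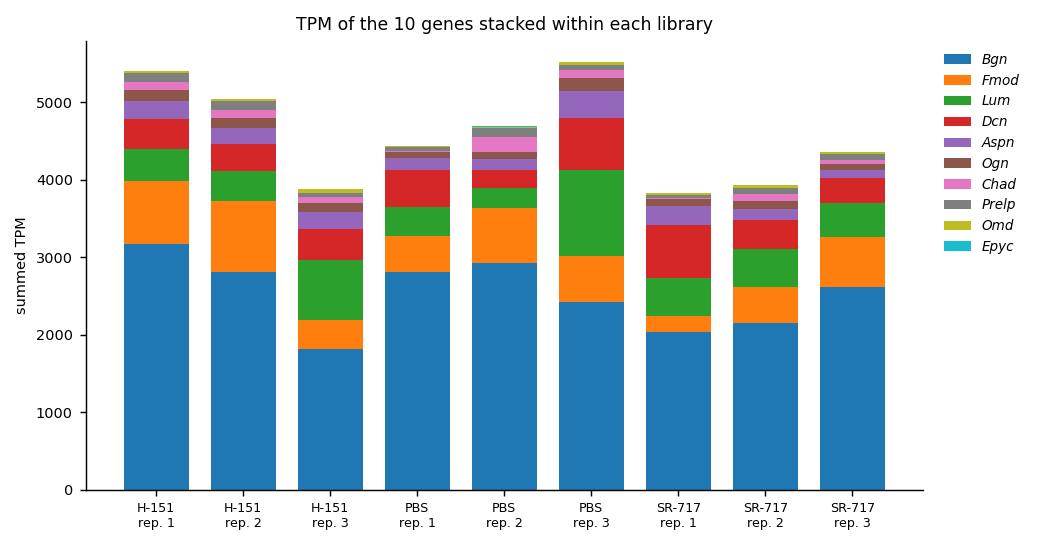
Stacked bars of the TPM of the 10 members in each of 9 libraries (vertical axis, summed TPM; horizontal axis, library), with a colour for each gene. Bgn forms the largest segment of every bar, 43.8% to 63.4% of it, and the segments of Fmod, Lum and Dcn change in size from library to library.

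For each gene across libraries, values are given as CPM after TMM scaling, which is not corrected for length. Bgn, a fibril-bound proteoglycan that in soluble form is bound by the receptors Tlr2 and Tlr4, stood at 3727, 3579 and 2639 CPM with H-151, at 3562, 3557 and 3278 CPM with PBS and at 2948, 2945 and 3385 CPM with SR-717. The 3 groups overlapped, and the highest library was only 1.41 times the lowest. The log2 fold changes of Bgn were -0.11 (SE 0.22) for SR-717 against H-151, -0.16 (SE 0.20) for SR-717 against PBS and -0.06 (SE 0.21) for H-151 against PBS. Their 95% confidence intervals ran from -0.64 to 0.42, from -0.64 to 0.31 and from -0.56 to 0.44, the tightest intervals against PBS of any member.

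Dcn, which binds collagen fibrils and TGF-β, gave 333, 328 and 431 CPM with H-151, 434, 208 and 658 CPM with PBS and 722, 369 and 296 CPM with SR-717. The highest value belonged to SR-717 replicate 1 and the lowest to PBS replicate 2, and the PBS and SR-717 groups overlapped widely. Its log2 fold changes were 0.34 (SE 0.35) for SR-717 against H-151, 0.09 (SE 0.50) for SR-717 against PBS and -0.25 (SE 0.39) for H-151 against PBS. Aspn, a relative of Dcn that binds TGF-β and has an aspartate-rich end, gave 255, 249 and 301 CPM with H-151, 186, 157 and 440 CPM with PBS and 344, 197 and 138 CPM with SR-717. PBS replicate 3 was the highest Aspn library and SR-717 replicate 3 the lowest. The corresponding log2 fold changes for Aspn were -0.26 (SE 0.33), -0.21 (SE 0.50) and 0.04 (SE 0.39). Without SR-717 replicate 1, Aspn passed the thresholds in SR-717 against H-151 (log2 fold change -0.69, adjusted p = 1.000, edgeR), and the 2 SR-717 libraries left were both below all H-151 values. Of 14270 genes tested in that fit, 71 were called higher and 79 lower.

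Fmod, which takes part in collagen cross-linking and is abundant in tendon and cartilage, measured 1246, 1511 and 713 CPM with H-151, 760, 1116 and 1039 CPM with PBS and 382, 819 and 1074 CPM with SR-717. The lowest library was SR-717 replicate 1, but the other SR-717 libraries lay within the range of the H-151 group. The log2 fold change was -0.62 (SE 0.45) for SR-717 against H-151, with a 95% confidence interval from -1.70 to 0.46, and without SR-717 replicate 1 it was -0.30. Against PBS the values were -0.36 (SE 0.39) for SR-717 and 0.25 (SE 0.31) for H-151. Prelp, a heparin-binding member found in cartilage and other connective tissue, measured 203, 227 and 110 CPM with H-151, 100, 210 and 134 CPM with PBS and 82.2, 145 and 161 CPM with SR-717. Like Fmod, it was lowest in SR-717 replicate 1 and highest in H-151 replicate 2. Its log2 fold changes were -0.49 (SE 0.36) for SR-717 against H-151, -0.20 (SE 0.36) for SR-717 against PBS and 0.28 (SE 0.36) for H-151 against PBS.

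Lum, a regulator of fibril spacing best known from the cornea, ranged 4.84-fold. Its values were 490, 496 and 1123 CPM with H-151, 480, 317 and 1536 CPM with PBS and 721, 677 and 582 CPM with SR-717. Replicate 3 was far above the other libraries in both the H-151 and the PBS group, whereas the SR-717 libraries lay close together between these extremes. The log2 fold changes were -0.10 (SE 0.35) for SR-717 against H-151, -0.24 (SE 0.58) for SR-717 against PBS and -0.15 (SE 0.63) for H-151 against PBS. Without PBS replicate 3, Lum was called higher in SR-717 than in PBS (log2 fold change 0.73, adjusted p = 1.000, edgeR), the sign being opposite to that with all 6 libraries. Of 14378 genes tested in that fit, 61 were called higher and 34 lower. Omd, made by osteoblasts and found in mineralising matrix, was 19.8, 16.4 and 53.7 CPM with H-151, 12.6, 16.3 and 34.1 CPM with PBS and 31.9, 36.0 and 14.9 CPM with SR-717. Replicate 3 was again the highest in the H-151 and PBS groups, but it was the lowest with SR-717. For Omd the log2 fold changes were -0.12 (SE 0.54), 0.40 (SE 0.48) and 0.51 (SE 0.55) in the same order of comparisons.

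Ogn was the only member whose libraries did not overlap between 2 groups. This protein, also called mimecan, belongs to class III and is found in bone and other connective tissues. Its values were 172, 163 and 187 CPM with H-151 and 130, 145 and 109 CPM with SR-717, so all SR-717 libraries were below all H-151 libraries. The PBS values of 101, 121 and 247 CPM ran past both groups at either end. The SR-717 mean of 128 ± 18.5 CPM against 174 ± 11.9 CPM (SD, n = 3 each) corresponded to a log2 fold change of -0.45 (SE 0.15, 95% confidence interval -0.81 to -0.09), which is 1.37-fold lower and under the 1.5-fold threshold. The unadjusted p was under 0.05, and the adjusted p = 0.996 (edgeR quasi-likelihood test, Benjamini-Hochberg over 14151 genes). Among all genes tested in this comparison, 5.19% did not overlap between the groups and 1.03% had an unadjusted p under 0.05, and 1 of 9 members tested did so on either measure. The log2 fold change stayed between -0.55 and -0.34 when any single library was left out. The unadjusted p was no longer under 0.05 without H-151 replicate 1 (0.0614), H-151 replicate 3 (0.0697) or SR-717 replicate 3 (0.0713), with the replicate block (0.0502) or in a joint fit of all 9 libraries (0.193). Against PBS the log2 fold changes of Ogn were -0.29 (SE 0.36) for SR-717 and 0.15 (SE 0.33) for H-151.

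Chad, a cartilage protein that binds collagen and cell-surface integrins, varied 12.6-fold between libraries. It was measured at 91.9, 97.9 and 73.3 CPM with H-151, 15.0, 158 and 95.5 CPM with PBS and 12.5, 89.0 and 43.5 CPM with SR-717. SR-717 replicate 1 and PBS replicate 1 were the lowest libraries by a wide margin, and the remaining 7 lay between 43.5 and 158 CPM. The H-151 group was the most uniform (mean 87.7 ± 12.8 CPM, against 89.6 ± 71.9 with PBS and 48.4 ± 38.5 with SR-717; SD, n = 3). The log2 fold change was -0.87 (SE 0.63, 95% confidence interval -2.39 to 0.66) for SR-717 against H-151 and -0.89 (SE 0.95, 95% confidence interval -3.17 to 1.39) for SR-717 against PBS. For H-151 against PBS it was -0.03 (SE 0.70). Leaving out SR-717 replicate 1 or 2 moved the value against H-151 to -0.41 or -1.66, the latter past the thresholds. Without SR-717 replicate 2, 214 of 14299 genes were called higher and 170 lower. Against PBS, SR-717 gave -0.42 or -1.68 without these libraries, -0.18 without PBS replicate 2 and -1.39 without PBS replicate 1. When replicate numbers were entered as a block, Chad passed the thresholds in SR-717 against PBS (log2 fold change -0.75, adjusted p = 0.999, edgeR), with SR-717 below PBS for each of the 3 numbers. The blocked fit called 3.15% of all genes tested. SR-717 replicate 3 correlated better with PBS replicate 2 (0.34) than with PBS replicate 3 (0.14) in its deviations over all genes.

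**Figure D2:**
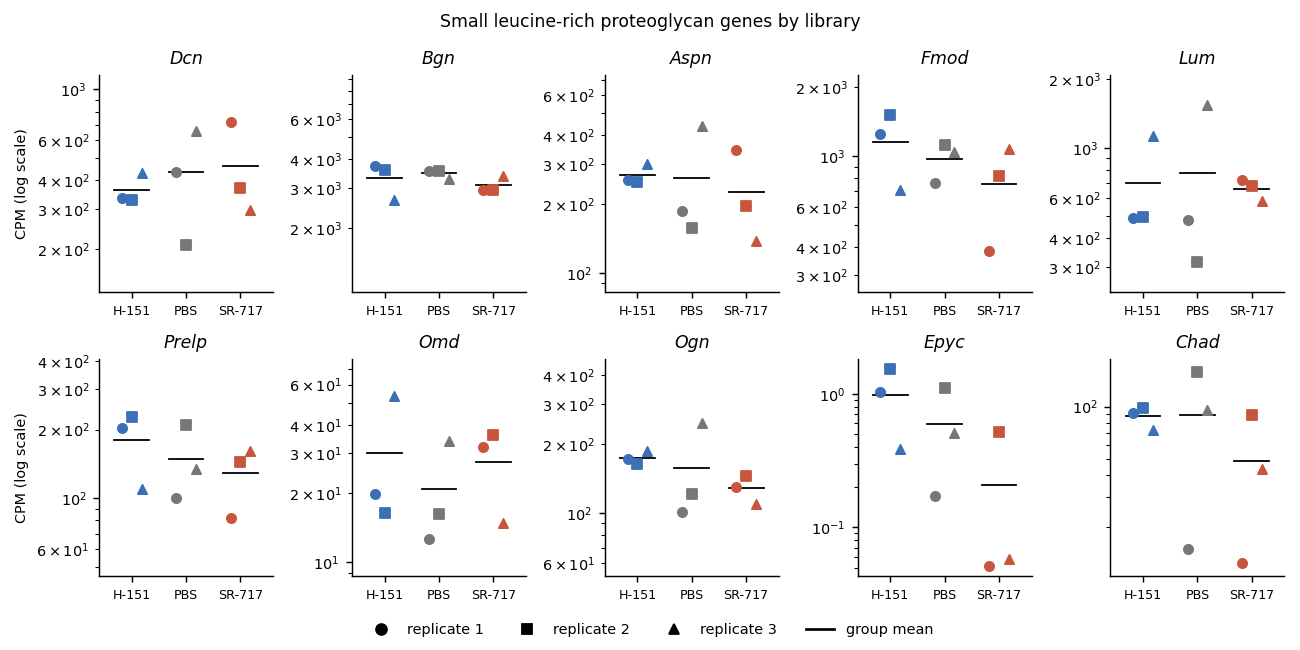
CPM of each member in the 9 libraries on log axes, a panel for each gene with an axis of its own. Points are single libraries, their shapes the replicate numbers, and horizontal lines the group means. Groups overlapped for every member except Ogn between H-151 and SR-717, where the libraries lay at 163 to 187 and at 109 to 145 CPM.

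Epyc, a proteoglycan of growth plate cartilage, was close to the limit of detection. Its expected counts were 21, 31 and 7 with H-151, 3, 26 and 9 with PBS and 1, 11 and 1 with SR-717. No SR-717 library exceeded 11 counts, and the PBS group covered nearly the whole range. Epyc failed the filter on low counts in both comparisons with SR-717 and was tested only for H-151 against PBS, where the log2 fold change was 0.70 (SE 0.73, 95% confidence interval -1.03 to 2.42). Without H-151 replicate 3 or without SR-717 replicate 2 it passed the filter and was called lower in SR-717 than in H-151, which was not the case with all 6 libraries and no filter. In both fits H-151 replicates 1 and 2, with 21 and 31 counts, carried Epyc past the count minimum of 10. It was thus tested through the group where it was high, and these calls do not count as support for a difference. Epyc also passed the filter without H-151 replicate 1, SR-717 replicate 1 or SR-717 replicate 3, and was not called in those fits. Over all genes, 55 were called higher and 97 lower of 14350 without H-151 replicate 3. Without SR-717 replicate 2 the counts were 214 and 170 of 14299.

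Chad varied alongside markers of cartilage cells. Summed over 10 chondrocyte markers, the level ranged from 5136 to 11017 CPM with H-151, from 1525 to 15498 CPM with PBS and from 258 to 8535 CPM with SR-717. The lowest sums were those of SR-717 replicate 1 and PBS replicate 1, the same libraries in which Chad was lowest. Col2a1, the main cartilage collagen, was at 50.1 CPM in SR-717 replicate 1 and 857 CPM in PBS replicate 1 but at 2572 CPM or more in the other 7, and no marker was at 0 in every library. Fmod was also lowest in SR-717 replicate 1, but PBS replicate 1, at 760 CPM, was above H-151 replicate 3. Epyc had 1 count in SR-717 replicate 3 as well as in SR-717 replicate 1, although the marker sums of these libraries were 4562 and 258 CPM. The part of cartilage content in the Chad, Epyc and Fmod values was not tested. The 7 osteoblast markers summed to between 1397 and 6990 CPM, and the highest sums, in replicate 3 of PBS and of H-151, fell in the libraries with the highest Lum values and with Omd at 34.1 and 53.7 CPM, while the lowest sum was that of SR-717 replicate 1, where Omd was 31.9 CPM. The 6 fibroblast markers summed to between 913 and 1238 CPM, a sum made up mostly of Gsn and Cd34, while Pi16 ran from 16.0 to 96.4 CPM, Clec3b from 20.7 to 89.6 CPM and Dpt from 44.1 to 168 CPM.

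**Figure D3:**
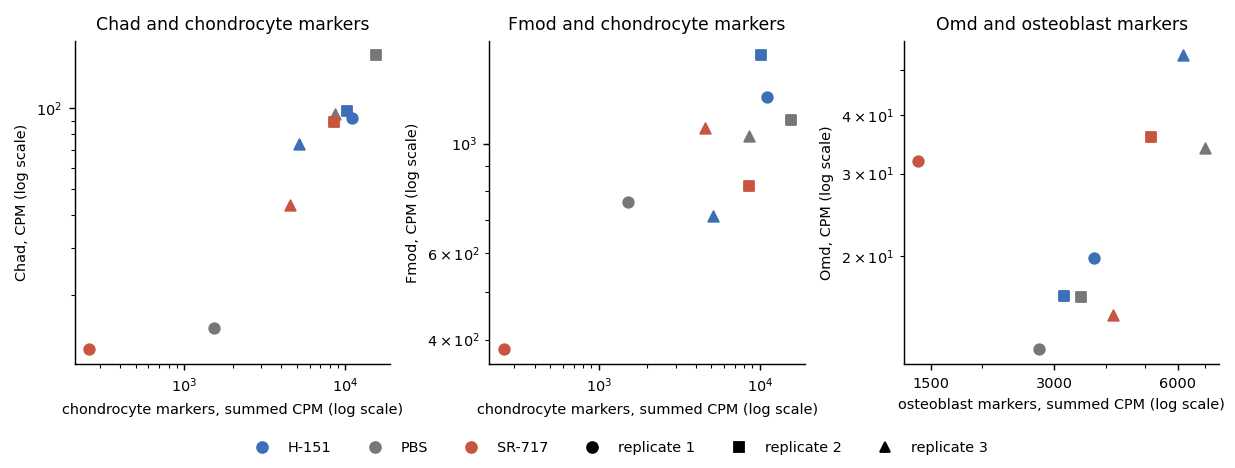
Levels of Chad and Fmod against the summed CPM of the chondrocyte markers, and of Omd against that of the osteoblast markers, on log axes, with 1 point for each of 9 libraries coloured by treatment and shaped by replicate number. Chad was lowest in the 2 libraries with the lowest chondrocyte marker sums (258 and 1525 CPM), and Omd at 31.9 CPM was not low in the library with the lowest osteoblast sum (1397 CPM).

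Set against the whole table, the comparison of SR-717 with H-151 called 107 of 14151 genes (0.756%) at the thresholds and 0 at an adjusted p under 0.05 (edgeR; 146 genes had an unadjusted p under 0.05). Of 9 members tested, 0 were called and all had an adjusted p = 0.996. Log2 fold changes were negative for 8 members and positive for 1, Dcn, with a median of -0.26 over the members and 0.02 over all genes. The median standard error of the members was 0.35, which limits what 3 libraries a group could resolve.

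For SR-717 against PBS, 73 of 14070 genes (0.519%) were called, and again 0 had an adjusted p under 0.05 (edgeR), while 0.689% had an unadjusted p under 0.05 and 3.75% did not overlap. Of 9 members tested, 0 were called, 0 had an unadjusted p under 0.05 and 0 were free of overlap. Dcn and Omd were positive and the other 7 negative, with a median log2 fold change of -0.21 against 0.01 for all genes. Blocking on replicate number led to 443 called genes (3.15%), among them 1 member, Chad. The comparisons of SR-717 with H-151 and with PBS share the SR-717 libraries, and their values are therefore not independent.

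H-151 against PBS gave 60 called genes of 14085 (0.426%) and 0 at an adjusted p under 0.05 (edgeR), with 0.646% at an unadjusted p under 0.05 and 3.87% without overlap. All 10 members were tested, and 0 passed any of these. Log2 fold changes were positive for 6 members and negative for 4, and the members' median log2 fold change was 0.10 against -0.02 for all genes. The replicate block raised the call count of all genes to 263 (1.87%) with 0 members among them, although the unadjusted p of Omd was then 0.0484 at a log2 fold change of 0.44, short of 1.5-fold. PBS replicate 3 bore on this comparison, since without it Aspn (log2 fold change 0.64) and Ogn (0.65, both adjusted p = 1.000, edgeR) passed the thresholds as higher in H-151. Of 14252 genes tested in that fit, 58 were called higher and 95 lower.

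**Figure D4:**
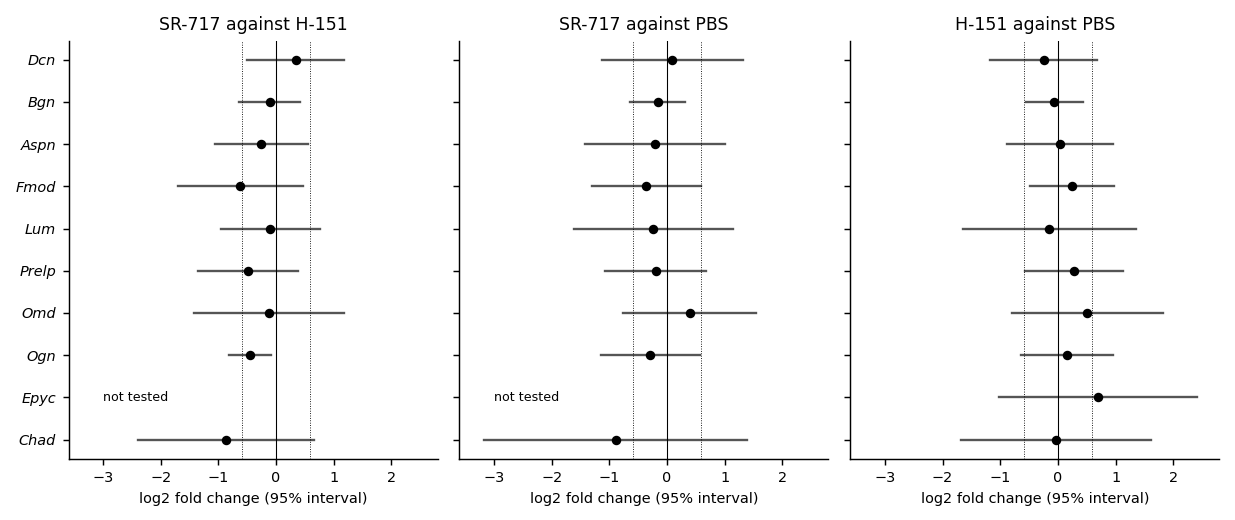
Log2 fold change of each member in the 3 comparisons, as points with 95% confidence intervals from the edgeR fits, a vertical line at 0 and dotted lines at a 1.5-fold change in either direction, with Epyc not tested against SR-717. All intervals spanned 0 except that of Ogn for SR-717 against H-151 (-0.81 to -0.09).

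The share of variance between treatments lay below that of the median gene for 4 members and above it for 6. Of the sum of squares of log2 CPM over the 9 libraries, differences between treatments made up 0.381% for Lum, 3.71% for Dcn, 7.55% for Aspn and 9.11% for Omd, against a median of 14.7% for all genes tested. The largest shares among the members were 47.8% for Epyc, which rests on few counts, and 25.9% for Fmod, and those of Ogn, Bgn, Chad and Prelp lay between 15.9% and 22.5%. Within groups, the SD of log2 CPM was 1.33 for Chad, 0.79 for both Lum and Omd, 0.63 for Dcn and 0.18 for Bgn, and the median gene had 0.32. Bgn was thus the only member steadier than the median gene. Differences between replicate numbers made up 52.9% of the sum of squares for Chad and 51.4% for Lum, where the median gene had 39.6%. The other 8 members lay below that median, between 12.7% for Aspn and 39.1% for Epyc.

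Members fell into sets that rose and fell together across libraries, described here by Pearson correlation of log2 CPM over the same 9 libraries, which share a normalization and the treatments. Fmod and Prelp, the neighbours on chromosome 1, were the closest pair (r = 0.91, and 0.90 without SR-717 replicate 1). Their TPM ratio stayed between 5.38 and 8.97. Aspn and Ogn, both on chromosome 13, reached r = 0.80 (0.94 without that library), and Dcn and Lum on chromosome 10 reached 0.75 (0.86). Sharing a locus did not always go with a like pattern, as Epyc correlated with Lum at only -0.25. Epyc had only 1 to 31 counts a library, which limits every correlation given for it. Dcn and Aspn (0.81), Lum and Omd (0.77) and Chad and Epyc (0.82) paired across loci. Fmod, Prelp, Epyc and Chad correlated positively with one another throughout (0.72 to 0.91), and so did Aspn, Lum, Omd and Ogn (0.64 to 0.80), sets that were picked after the values were seen. Without SR-717 replicate 1, Fmod and Chad correlated at 0.48 in place of 0.74 and Fmod and Epyc at 0.57 in place of 0.72. Opposite patterns were seen for Bgn and Omd (r = -0.88) and for Dcn and Prelp (-0.77). Dcn and Fmod were opposed at -0.65, a value that was -0.37 without SR-717 replicate 1.

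**Figure D5:**
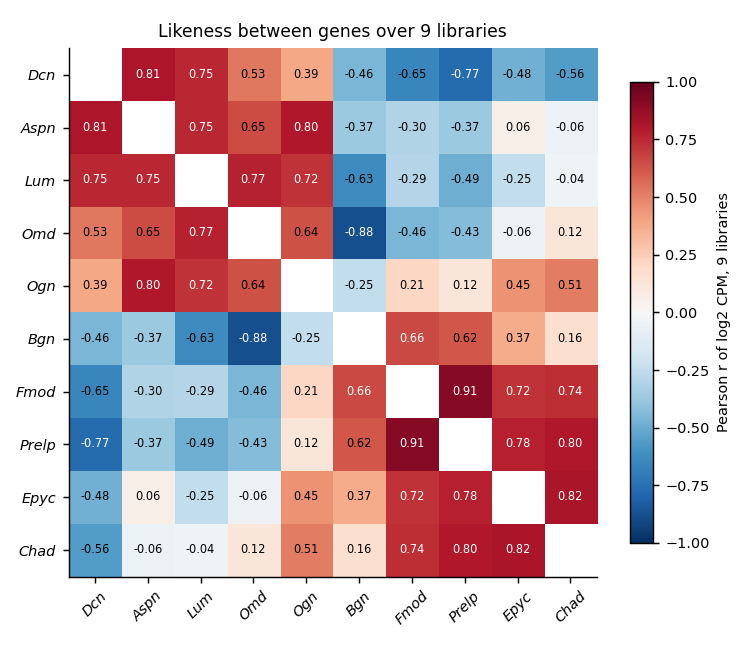
Pearson correlation of log2 CPM between members over 9 libraries, shown as a coloured grid with the value in each cell and genes ordered so that like patterns adjoin. Fmod and Prelp (0.91) stand at the high end and Bgn and Omd (-0.88) at the low end.

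The shifting balance can be read from Fmod and Lum, proteins that bind the same region of collagen. The ratio of Fmod to Lum in TPM was 2.00, 2.39 and 0.499 with H-151, 1.24, 2.76 and 0.531 with PBS and 0.416, 0.950 and 1.45 with SR-717. Each group held libraries with more Fmod and libraries with more Lum. The TPM ratio of Bgn to Dcn, close relatives that can each carry chondroitin or dermatan sulfate, lay between 2.97 in SR-717 replicate 1 and 12.4 in PBS replicate 2.

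Among 9782 genes with a mean of at least 10 CPM, those with the pattern most like each member over the 9 libraries were picked as the 3 highest correlations. For Bgn these were Col6a3 (r = 0.96), Col5a1 (0.95) and Thbs2 (0.95), all matrix genes. Prelp was most like Smoc2, Fn1 and Fndc1 (0.97 each), of which Fn1 encodes fibronectin. Dcn was closest to Csnk1a1 (0.99), Pdgfra (0.98), a receptor found on mesenchymal cells, and Impact (0.97). Fmod was closest to Vangl1 (0.99), Pamr1 and Rtl3 (both 0.98), and Chad to Tmem120b, Colgalt2 (both 0.97) and Bmp6 (0.96). The top gene was Tmed2 for Lum (0.99), Plagl1 for Omd (0.99), Zfp354c for Aspn (0.95), Fam20b for Ogn (0.94) and Ttll5 for Epyc (0.96). With 9 libraries and so many genes compared, these names are a description.

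Of 8 other genes of the family, 7 were tested. Mean TPM ranged from 57.0 for Tsku to 0.289 for Optc, with Podnl1 at 25.4, Ecm2 at 12.1, Podn at 11.9, Kera at 9.09, Chadl at 8.25 and Nyx at 0.313. Ecm2, which lies beside Aspn on chromosome 13, was the only one past the thresholds in any comparison. It measured 27.2, 30.6 and 36.8 CPM with H-151, 24.1, 21.0 and 21.9 CPM with PBS and 10.0, 22.1 and 17.9 CPM with SR-717. The H-151 libraries were above all others. Of all genes tested, 5.19% did not overlap for SR-717 against H-151 and 3.87% for H-151 against PBS. The thresholds called 0.756% of all genes for SR-717 against H-151 and 0.426% for H-151 against PBS. The log2 fold change was -0.93 (SE 0.31) for SR-717 against H-151 (adjusted p = 0.996, edgeR), and without H-151 replicate 3 it was -0.81 and no longer past the thresholds. For H-151 against PBS, Ecm2 had a log2 fold change of 0.50 (adjusted p = 1.000, edgeR), short of 1.5-fold, and this comparison shares the H-151 libraries with the former. Tsku, a secreted modulator of growth factor signals, gave -0.33 (SE 0.13, adjusted p = 1.000, edgeR) for H-151 against PBS, also short of 1.5-fold. Chadl, a relative of Chad, ran in parallel with it (r = 0.95, and 0.94 without SR-717 replicate 1). Of the exon bases of Chadl, 19.5% overlap the gene L3mbtl2 on the other strand, so its counts may include reads of that gene.

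Genes that build, bind or cut these proteins were examined as 4 lists. Of 30 genes for glycosaminoglycan chain synthesis, which attach and sulfate the sugar chains, all were tested and 0 passed the thresholds in either direction in any comparison, with 0 at an unadjusted p under 0.05. Only 0.426% to 0.756% of all genes were called, so 0 calls in lists of this size say little. For SR-717 against H-151, 3 of the 30 did not overlap, against 5.19% of all genes. This number was 1 for SR-717 against PBS and 0 for H-151 against PBS, against 3.75% and 3.87% of all genes. Median log2 fold changes of this list were -0.10 for SR-717 against H-151, -0.14 for SR-717 against PBS and -0.03 for H-151 against PBS. B4galt1, Chsy1 and Chpf were among its most expressed genes, with means of 109, 92.0 and 85.9 TPM. The 22 genes for collagens and their cross-linking (fibrillar collagens, the fibril-associated Col12a1 and Col14a1, the 3 collagen VI genes Col6a1, Col6a2 and Col6a3, and enzymes) likewise gave 0 calls, with medians of -0.11, -0.19 and -0.08. Col1a1, the main collagen of bone, averaged 9939 TPM, above any member.

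Receptors and ligands bound by the members (20 genes, 19 tested) gave 0 calls and medians of 0.04, -0.04 and -0.16 in the same order. Tgfb1, the growth factor held by Dcn, Bgn and Fmod, averaged 161 TPM and stayed between 134 and 206 TPM. Tlr2 was highest in SR-717 replicate 1 at 124 TPM, against a mean of 32.2 TPM, in the library that also had the highest neutrophil marker sum. The list of proteases, which also holds the procollagen C-proteinase enhancers Pcolce and Pcolce2 (15 genes, 14 tested), gave 0 calls and medians of 0.03, -0.16 and -0.19. Bmp1, which removes the propeptide of Bgn, averaged 265 TPM, and Mmp2, a gelatinase that can cleave Dcn, averaged 1004 TPM.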

How the data were processed

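RNA from fracture callus was sequenced in 9 libraries, 3 in each of 3 groups, and grouped by the labels. The labels' extraction text speaks of cultured cells, whereas the tissue label gives bone and the methods callus. The authors deposited expected counts per gene, not normalized, and TPM values, scaled by gene length to a fixed sum in each library. The submitters' processing notes name mm10. The aligner, counting program, annotation and use of strand are not given in the sources used here.

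Expected counts were rounded to whole numbers, where counts had been planned for, and each pair of groups was fitted on its own, without covariates, by quasi-likelihood in edgeR 4.0.16 (R 4.3.3) after TMM scaling (glmQLFit, glmQLFTest), keeping genes that filterByExpr passed at a count minimum of 10 and a total of 15. Standard errors were derived from the F statistic. P-values were adjusted by Benjamini-Hochberg over all genes tested. The thresholds of the study (p under 0.05, 1.5-fold) were applied to unadjusted p. Log2 CPM used a prior count of 2. The procedure was checked on simulated data. The members and lists were chosen with earlier results of these data known. All members were named, genes of other lists were named only if past the thresholds or as a reference level, and the 3 most alike genes were named for each member. Tsku and the single collagen, receptor and protease levels and fold changes were named after their values were seen.

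Replicate numbers were considered as a possible pairing where every pair of same-numbered libraries correlated above 0.1 in its deviations from the group means. The main fits did not use this pairing, and the block was run only as an alternative, in every comparison. Correlations were 0.65, 0.34 and 0.14 for SR-717 and PBS and 0.30, 0.49 and 0.50 for H-151 and PBS, and the labels name no shared batch. Alternatives were DESeq2 1.42.0 (Wald test, and its size factors in edgeR), no filter, all 9 libraries in 1 fit, the block, a fold threshold of 2 and leaving out each library.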

Additional observations from a re-analysis of the deposited data

How the results depend on the processing

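The count of members past the thresholds stayed at 0 in all 3 comparisons with a fold threshold of 2, with DESeq2 size factors or its Wald test, in a joint fit of 9 libraries and without the filter. With the replicate block it was 1 for SR-717 against PBS (Chad, -0.75), where 3.15% of all genes were called, and 0 otherwise. Leaving out 1 library gave 0 to 2 calls for SR-717 against H-151 (Epyc without H-151 replicate 3, Aspn without SR-717 replicate 1, Chad and Epyc without SR-717 replicate 2), 0 to 1 for SR-717 against PBS and 0 to 2 for H-151 against PBS. The Epyc calls came from fits in which H-151 libraries carried it past the filter, so they do not count as support for a difference. Over all genes, SR-717 against H-151 gave 55 higher and 97 lower of 14350 without H-151 replicate 3. The counts were 71 and 79 of 14270 without SR-717 replicate 1, and 214 and 170 of 14299 without SR-717 replicate 2. Without PBS replicate 3, 61 were higher and 34 lower of 14378 for SR-717 against PBS. For H-151 against PBS these counts were 58 and 95 of 14252. Ecm2 fell below the thresholds without H-151 replicate 3. The cause was not tested.

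The block reversed Lum (0.02) and Omd (0.04) for SR-717 against H-151, Lum (0.12) for SR-717 against PBS, and Lum (0.07) and Chad (0.40) for H-151 against PBS, all log2 fold changes, and no other alternative with all libraries reversed a sign. For SR-717 and H-151 the same-numbered libraries correlated at 0.34, 0.06 and 0.08, so the samples share only a number there, and SR-717 replicates 2 and 3 did not correlate best with their own number.

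Leaving out 1 library reversed 26 of 186 fitted values. For SR-717 against H-151 the log2 fold change then ran from -0.14 to 0.58 for Dcn, -0.69 to 0.00 for Aspn, -0.30 to 0.41 for Lum and -0.42 to 0.60 for Omd. Against PBS, SR-717 gave -0.38 to 0.52 for Dcn, -0.63 to 0.40 for Aspn, -0.61 to 0.73 for Lum, -0.41 to 0.14 for Prelp and -0.52 to 0.21 for Ogn. H-151 gave -0.57 to 0.18 for Dcn, -0.15 to 0.08 for Bgn, -0.21 to 0.64 for Aspn, -0.66 to 0.82 for Lum, -0.22 to 1.05 for Omd, -0.07 to 0.65 for Ogn and -0.53 to 0.69 for Chad. Epyc, with 1 to 31 counts a library, was the member with the least depth.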
